A study of Mus musculus with 12 samples.

Results

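The 34 genes described here encode scaffold proteins of the excitatory postsynaptic density, the adhesion proteins anchored in it, calcium/calmodulin-dependent protein kinase II (CaMKII) and neurogranin, and regulators of actin and small GTPases in the dendritic spine. They were taken from the table by name, from a list drawn up with earlier results of these data known. All 34 were present among the 18558 genes of the deposited table, and all 34 passed the filter on low counts that left 13982 genes to be tested. The lowest count of any of them in a library of a named genotype was 78, for Lrrtm4 in a Neil2-/- mouse.

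RNA was taken from the pyramidal layer of hippocampal area CA1, cut by laser from 8-µm sections of the dorsal hippocampus of male mice aged 3 to 6 months that were killed straight from the home cage, and sequenced as 100-bp paired reads, with 1 library per mouse. The groups were Neil1-/- mice (n = 2), Neil2-/- mice (n = 3), Neil1/2-/- mice lacking both enzymes (n = 2) and WT mice (n = 3). All are labelled as on a C57Bl6 background, so that every group shares this label, the sex and the absence of treatment. The mutant lines were backcrossed, and the paper's mutation analysis left out intervals inherited from another strain. NEIL1 and NEIL2 are DNA glycosylases that start base excision repair of oxidized bases. The knockouts are constitutive and were kept as 3 separately bred lines, with C57BL/6N mice as WT, so that a difference between lines and an effect of the deletion cannot be told apart. A further 2 libraries carry the title of one genotype and the label of another and entered no comparison.

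The postsynaptic density is the protein mesh that lies under the membrane of an excitatory synapse, opposite the site of glutamate release. Scaffolds of the MAGUK family hold glutamate receptors and adhesion proteins in place, DLGAP linkers join them to the Shank and Homer layer beneath, and that layer reaches the actin of the spine. CaMKII is switched on by calmodulin once it has bound calcium that enters with synaptic activity, and in CA1 CaMKII is needed for long-term potentiation. Neurogranin binds calmodulin at low calcium. The mRNAs of Camk2a, Nrgn, Shank1 and Dlgap3 are known to be carried into dendrites.

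The 10 libraries held between 19618921 and 21970173 counts. Reads of Neil1 were not fewer in mice lacking NEIL1, with 5.97 to 7.67 CPM (counts scaled to the library size with TMM factors) in the libraries labelled Neil1-/- and Neil1/2-/-, against 2.95 to 4.44 CPM in those labelled Neil2-/- or WT. These are reads over all exons of the gene and, with the deleted part unknown here, no check of the labels. Neil2 was at 0 counts in all Neil2-/- and Neil1/2-/- libraries, and at 5 to 10 counts in the Neil1-/- and WT libraries. The 10 marker genes of CA1 pyramidal neurons summed to 4017 to 4220 CPM in Neil1-/-, 4467 to 4591 CPM in Neil2-/-, 4088 to 4519 CPM in Neil1/2-/- and 4195 to 4541 CPM in WT libraries, and none was at 0. These markers of other tissue were highest in library Neil1/2-/- 1: 1293 CPM summed over 9 oligodendrocyte markers and 88.1 CPM over 8 of striatum and thalamus. WT libraries had 537 to 630 CPM and 14.3 to 18.1 CPM. Libraries Neil1-/- 1 (703 and 52.3 CPM) and Neil1/2-/- 2 (710 and 49.5 CPM) were also above WT, and Neil1-/- 2 (519 and 14.96 CPM) was not.

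Most members were strongly expressed in the WT pyramidal layer. To compare genes, CPM were divided by the length of each gene's exons in kb. Ranked in this way among 17947 genes with a length, 25 of the 34 members lay above the 75th percentile and 17 above the 90th, and the median of all genes was 2.35 CPM per kb. Nrgn, which encodes neurogranin, led with 2061 CPM per kb, followed by Camk2a with 292 and Camk2b with 193 CPM per kb, the genes of the α and β subunits of CaMKII. Cyfip2, a subunit of the WAVE actin regulatory complex, followed with 176 CPM per kb. Agap2, which encodes a GTPase-activating protein for Arf, was at 132 CPM per kb. The spine scaffold gene Ppp1r9b (spinophilin) was at 125 CPM per kb.

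Among the MAGUK genes, Dlg3 (SAP102) and Dlg4 (PSD-95) had 57.0 and 52.7 CPM per kb in WT mice, against 13.1 for Dlg2 (PSD-93) and 5.17 for Dlg1 (SAP97). At the lower end were Lrrtm4, an adhesion protein gene, with 0.909 CPM per kb and Camk2d, the gene of the δ subunit of CaMKII, with 0.422 CPM per kb, the only members below the median of all genes. The order depended in part on the length used. With the longest transcript in place of all exons, Nrgn, Camk2a, Camk2b and Cyfip2 kept ranks 1 to 4, Dlg4 was ranked 9 rather than 11 and Dlg3 was ranked 15 rather than 10, and Lrrtm4 and Camk2d exchanged the last places.

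**Figure D1:**
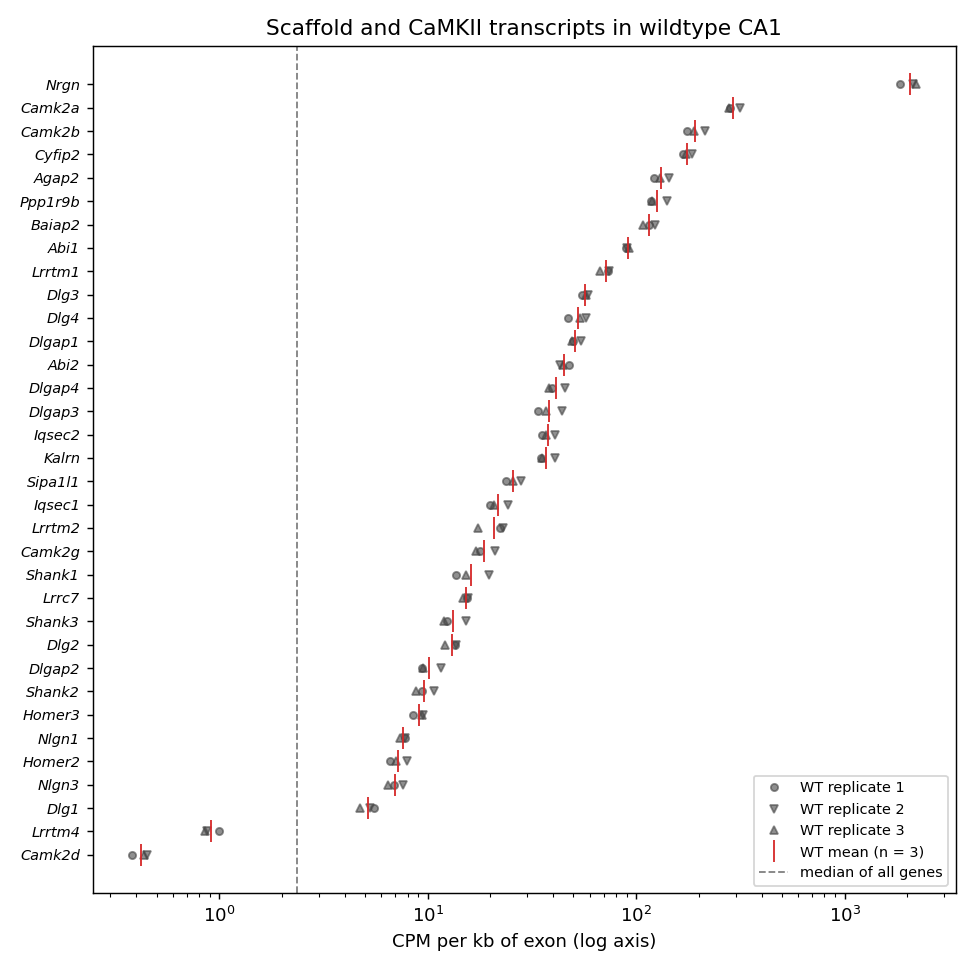
Levels of the 34 members in WT mice, in CPM per kb of exon on a log axis, with 1 symbol per WT library, a red bar for the mean (n = 3) and a dashed line at the median of all genes (2.35). Nrgn stands at the top with 2061 CPM per kb, and only Lrrtm4 and Camk2d lie below the dashed line.

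Most members varied little. Over the 10 libraries the highest CPM of a member was a median of 1.38 times its lowest, and over the 3 WT libraries 1.18 times. The widest spreads were those of Camk2d, 3.12 times over the 10 libraries, Shank1, 2.00 times, Lrrtm4, 1.92 times, and Iqsec1, 1.77 times. Lrrtm1 and Dlg3 varied least, by 1.15 and 1.16 times.

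Part of this variation was shared by many members within a library rather than by a genotype. Relative to the WT mean of each gene, the members' median was -0.06 and -0.08 (log2) in the 2 Neil1-/- libraries, 0.23, 0.02 and 0.00 in the 3 Neil2-/- libraries, 0.06 and 0.04 in the 2 Neil1/2-/- libraries, and -0.07, 0.12 and -0.05 in the 3 WT libraries. The same median over all genes above 1 CPM stayed between -0.01 and 0.00 in each of them. The TMM scaling holds that median near 0, so it does not show that the shift is particular to the members. Library Neil2-/- 1 held the highest value of 18 of the 34 members, and 24 of the 34 were above every WT library there, compared with 7 and 8 in the other 2 Neil2-/- libraries. Library Neil1-/- 2 held the lowest value of 12 members. Within WT, 31 members were above the WT mean in library 2, and 8 and 6 in libraries 1 and 3.

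Ddn encodes dendrin, and its mRNA is also carried into dendrites. It is 1 of the 51 other postsynaptic genes given below, was not called by edgeR, and does not stand for the others. Ddn had 1637 and 1860 CPM in Neil1-/-, 2021, 1641 and 1673 CPM in Neil2-/-, 1800 and 1768 CPM in Neil1/2-/-, and 1632, 1814.5 and 1682 CPM in WT libraries. Its highest value was thus in library Neil2-/- 1 too, but its next highest was in Neil1-/- 2, the library with the lowest value of 12 members. Library Neil2-/- 1 also had the largest summed CA1 markers, 4591 CPM. By the mean log2 deviation of those 10 markers from WT it was at 0.032, and WT 2 was at 0.034. The part of the CA1 markers in the members' levels was not tested. In bulk RNA, fewer cells of a type and less RNA per cell cannot be told apart.

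**Figure D2:**
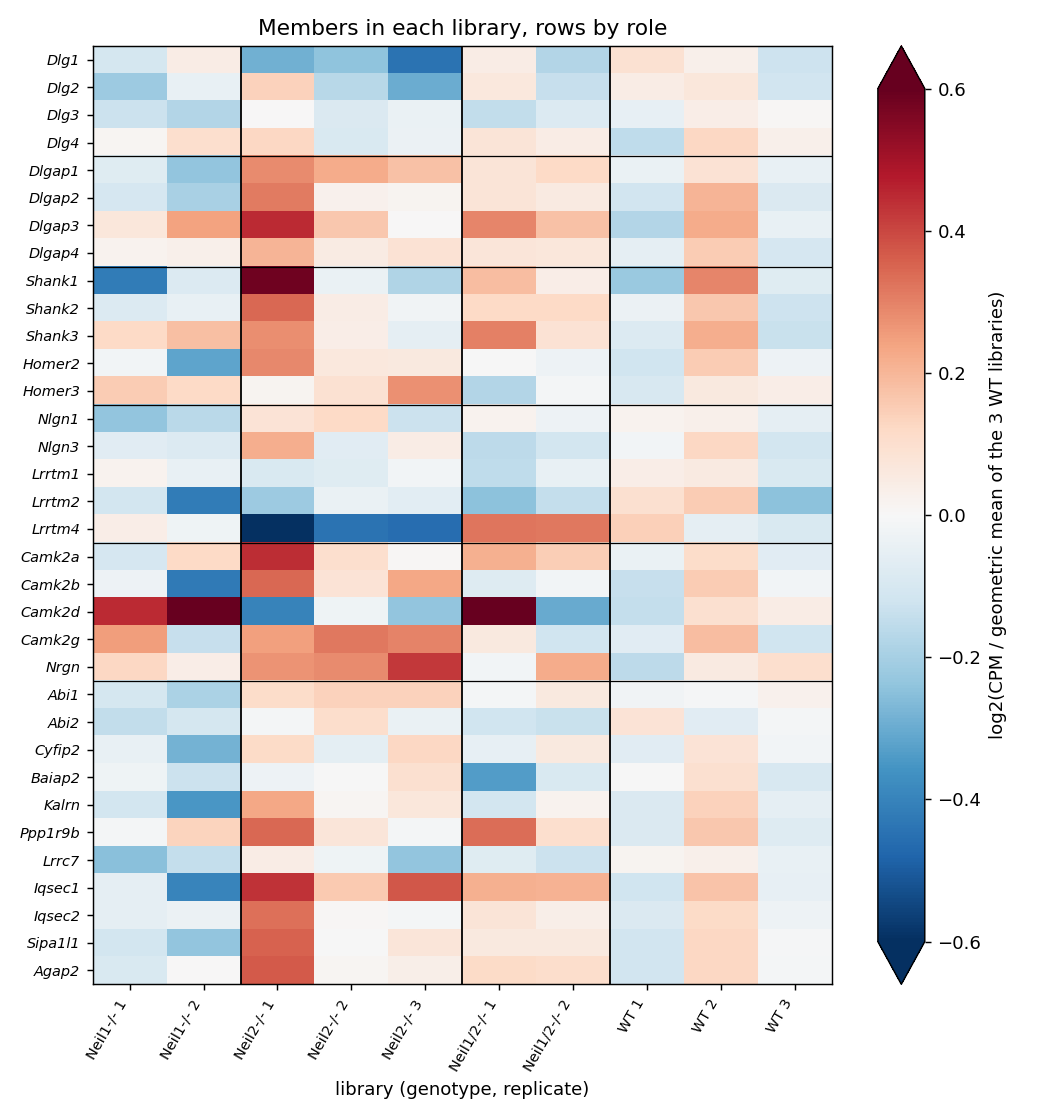
Each member in each library, as log2 of its CPM over the geometric mean of the 3 WT libraries (red above, blue below, colours saturate at 0.6 either way). Columns run Neil1-/-, Neil2-/-, Neil1/2-/- and WT, and rows are grouped by role. Library Neil2-/- 1 is red in most rows, with 24 of 34 members above every WT library.

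No member passed the test in any single genotype. A call is a Benjamini-Hochberg adjusted p, over the 13982 genes, under 0.05 in edgeR's quasi-likelihood test. By this measure 0 of the 34 members were called in Neil1-/- against WT, where 0.2% of all genes were called, 0 in Neil2-/- against WT (0.3% of all genes) and 0 in Neil1/2-/- against WT (0.322% of all genes). DESeq2 called 0, 1 and 0 members in these comparisons, the 1 being Nrgn. Of the 13982 genes it called 29 higher and 55 lower in Neil1-/- mice, 87 and 63 in Neil2-/- mice, and 90 and 85 in Neil1/2-/- mice. At an unadjusted p under 0.05, edgeR had 6 members lower and none higher in Neil1-/- mice, where 4.89% of all genes were lower and 4.09% higher by that measure. It had 5 higher and 2 lower in Neil2-/- mice, where 5.32% of all genes were higher and 4.33% lower. In Neil1/2-/- mice it had 1 lower and none higher, where 4.73% of all genes were lower and 6.33% higher.

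The members' log2 fold changes were small. Their median was -0.08 in Neil1-/- mice, with 11 members higher and 23 lower by sign alone. It was 0.11 in Neil2-/- mice, with 25 higher and 9 lower, and 0.04 in Neil1/2-/- mice, with 19 higher and 15 lower. The median over all genes tested was 0.00 in each, as the scaling brings about. These 3 comparisons share the WT libraries. The libraries' own medians had an SD of 0.0935 within genotypes, so that the 3 medians were of the size of the spread between mice, and the Neil2-/- median was 0.03 without library Neil2-/- 1.

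The intervals show how large a difference could have been missed. For 32 of the 34 members the 95% interval (not adjusted for the number of genes) lay within a 1.5-fold change in either direction in each of the 3 comparisons with WT. The exceptions were Camk2d in all 3 comparisons, Shank1 in Neil1-/- mice, and Lrrtm4 in Neil2-/- and Neil1/2-/- mice.

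Over all 10 libraries each enzyme was also tested as a factor, as the loss of NEIL1 (4 libraries lacking it against 6 that have it) and the loss of NEIL2 (5 against 5), each with the other as a term of the same fit. Loss of NEIL2 gave the only calls: 2 of the 34 members, Dlgap1 and Iqsec1, rose, where 1.49% of all genes were called and 0.73% were called as higher. DESeq2 called 3, these and Abi1, where it called 355 of the 13982 genes higher and 273 lower. At an unadjusted p under 0.05, 7 members were higher and 1 lower (8.52% and 7.61% of all genes), and the members' median log2 fold change was 0.11, with 23 higher and 11 lower by sign. For loss of NEIL1, 0 members were called by edgeR (0.336% of all genes). DESeq2 called 1, Camk2d, where it called 116 of the 13982 genes higher and 116 lower. At an unadjusted p under 0.05, 2 were higher and 7 lower (7.03% and 6.77% of all genes), with a median of -0.11 and 7 higher and 27 lower by sign. Over all genes, 7149 were higher and 6833 lower by sign for loss of NEIL1, and 7070 and 6912 for loss of NEIL2. The libraries' own member medians had an SD of 0.0935 within genotypes. Members that shift together in a library are not separate evidence in these counts by sign. In the interaction, which asks whether the Neil1/2-/- difference departs from the sum of the single ones, 0 members were called by either tool (0.093% of all genes), and 1 was higher and 3 lower at an unadjusted p under 0.05 (3.2% and 2.32% of all genes).

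The MAGUK scaffolds bind the tails of NMDA receptors, AMPA receptor partners and neuroligins through their PDZ domains. None of the 4 was called in any comparison. Dlg4, whose product PSD-95 is the main scaffold of the mature synapse, had 702 and 747 CPM in Neil1-/-, 758, 653 and 679 CPM in Neil2-/-, 734 and 719 CPM in Neil1/2-/-, and 627, 758 and 711 CPM in WT libraries. Both the lowest and the highest of the 10 values were those of WT mice. Its log2 fold changes were 0.05 (95% interval -0.14 to 0.24, edgeR adjusted p = 0.897) in Neil1-/-, -0.0035 (-0.18 to 0.17, adjusted p = 0.997) in Neil2-/- and 0.06 (-0.14 to 0.25, adjusted p = 0.865) in Neil1/2-/- mice.

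Dlg1 had 51.6 and 57.2 CPM in Neil1-/-, 45.4, 47.0 and 40.8 CPM in Neil2-/-, 57.2 and 49.0 CPM in Neil1/2-/-, and 59.1, 56.7 and 50.9 CPM in WT libraries. All 3 Neil2-/- values lay below every WT value. In Neil2-/- mice the log2 fold change was -0.32 (SE 0.09, 95% interval -0.52 to -0.12), with an unadjusted p of 0.00412 and an edgeR adjusted p of 0.242. Its counts were not whole numbers in 5 of the 12 libraries, so that some of its reads could be shared with another gene.

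Dlg3, the MAGUK most prominent in young synapses, had 304 and 294 CPM in Neil1-/- and 300 and 314 CPM in Neil1/2-/- libraries, against 333, 314 and 324 CPM in Neil2-/- and 322, 342 and 335 CPM in WT libraries. In both groups lacking NEIL1 its values lay below every WT value. In Neil1-/- mice the log2 fold change was -0.15 (SE 0.06), with an edgeR adjusted p of 0.54, and -0.11 (SE 0.04) for loss of NEIL1, with an adjusted p of 0.294. Dlg2 ranged from 173 to 233 CPM, with both ends among the Neil2-/- libraries.

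The DLGAP proteins link PSD-95 to Shank. All 4 of their genes had positive log2 fold changes in Neil2-/- mice, with a median of 0.16, and in Neil1/2-/- mice, with a median of 0.08. In Neil2-/- mice 25 of the 34 members were positive, among them all 5 Shank and Homer genes (median 0.13) and 0 of the 4 MAGUK genes. Of the 4 linker genes 1 was called for loss of NEIL2. That gene, Dlgap1, which lies on chromosome 17 between 69969073 and 70821413 (GRCm38), had 868 and 773 CPM in Neil1-/-, 1111, 1066 and 1031 CPM in Neil2-/-, 961 and 991 CPM in Neil1/2-/-, and 887, 969 and 883 CPM in WT libraries. The 3 Neil2-/- values were above and the Neil1-/- values below every WT value. The 5 libraries lacking NEIL2 overlapped the other 5 only in that 961 lay below 969 CPM.

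For loss of NEIL2 the log2 fold change of Dlgap1 was 0.24 (SE 0.05, 95% interval 0.13 to 0.34), with an edgeR adjusted p of 0.0306. It was 0.23 (SE 0.07, adjusted p = 0.248) in Neil2-/- mice and 0.10 (SE 0.07, adjusted p = 0.671) in Neil1/2-/- mice against WT, and -0.15 (SE 0.07, adjusted p = 0.571) in Neil1-/- mice. The call was lost when library Neil1-/- 2, Neil1/2-/- 1, Neil1/2-/- 2, Neil2-/- 1, Neil2-/- 2, WT 1 or WT 3 was left out, with log2 fold changes of 0.20 to 0.26 over all the libraries left out in turn and a highest adjusted p of 0.104.

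Dlgap3 had 180 and 203 CPM in Neil1-/-, 234, 192 and 172 CPM in Neil2-/-, 210 and 194 CPM in Neil1/2-/-, and 152, 200 and 166 CPM in WT libraries, with no call. Dlgap2 ranged from 54.4 to 77.2 CPM and Dlgap4 from 324 to 400 CPM, each highest in library Neil2-/- 1. The counts of Dlgap4 were not whole numbers in any library and may hold shared reads.

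The Shank proteins form the layer below the linkers and Homer proteins tie them to metabotropic glutamate receptors. None of these 5 genes was called. Shank1 had 126 and 159 CPM in Neil1-/-, 252, 164 and 149 CPM in Neil2-/-, 191 and 173 CPM in Neil1/2-/-, and 144, 206 and 160 CPM in WT libraries. The single value of 252 CPM in Neil2-/- 1 set its range, and the 3 WT libraries alone differed by 1.43 times. Its log2 fold change in Neil2-/- mice was 0.14 with a 95% interval of -0.25 to 0.54. Shank2 ranged from 94.7 to 131 CPM, Shank3 from 110 to 149 CPM and Homer2 from 72.9 to 111 CPM.

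Homer3 had 34.9 and 34.1 CPM in Neil1-/-, 31.8, 33.5 and 38.0 CPM in Neil2-/-, 27.8 and 31.1 CPM in Neil1/2-/-, and 29.3, 32.7 and 32.3 CPM in WT libraries. Both Neil1-/- values were above WT, and 27.8 CPM in a Neil1/2-/- mouse was the lowest. The interaction was -0.36 (SE 0.14, 95% interval -0.66 to -0.05), with an unadjusted p of 0.0249 and an edgeR adjusted p of 0.869. Its counts were whole in none of the libraries.

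Neuroligins (Nlgn1, Nlgn3) and the leucine-rich proteins Lrrtm1, Lrrtm2 and Lrrtm4 span the postsynaptic membrane and bind presynaptic partners, among them neurexins. None of the 5 was called. Nlgn1, found mainly at excitatory synapses, had 87.2 and 91.9 CPM in Neil1-/-, 109, 112 and 94.0 CPM in Neil2-/-, 104 and 101 CPM in Neil1/2-/-, and 104, 105 and 99.0 CPM in WT libraries. Both Neil1-/- values were below every WT value, as were those of 13.8% of all genes. Its log2 fold change in Neil1-/- mice was -0.20 (SE 0.08, 95% interval -0.38 to -0.02), with an unadjusted p of 0.0326 and an edgeR adjusted p of 0.54. Nlgn3 ranged from 57.9 to 75.2 CPM, Lrrtm1 from 195 to 226 CPM and Lrrtm2 from 93.3 to 139 CPM.

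Lrrtm4 was low and varied more between libraries than the other adhesion genes. It had 5.72 and 5.47 CPM in Neil1-/-, 3.63, 4.10 and 4.06 CPM in Neil2-/-, 6.97 and 6.94 CPM in Neil1/2-/-, and 6.15, 5.37 and 5.24 CPM in WT libraries. The Neil2-/- values lay below and the Neil1/2-/- values above every WT value. Against WT the log2 fold change was -0.51 (SE 0.15, 95% interval -0.82 to -0.19) in Neil2-/- mice, with an edgeR adjusted p of 0.255, and 0.32 (SE 0.16, -0.02 to 0.66) in Neil1/2-/- mice, with an adjusted p of 0.484. The interaction was 0.82 (SE 0.23, 95% interval 0.33 to 1.31), with the smallest unadjusted p of any member in that test, 0.00347, and an adjusted p of 0.697. Lrrtm3, a relative of Lrrtm4 among the 51 other postsynaptic genes given below, had a log2 fold change of -0.92 (SE 0.20, edgeR adjusted p = 0.107) in Neil2-/- mice. The interaction of Lrrtm3 was 1.59 (SE 0.31, edgeR adjusted p = 0.168).

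Lrrtm4 is best known from dentate granule cells. The 6 markers of those cells summed to 132 and 53.0 CPM in Neil1-/-, 93.1, 74.5 and 106 CPM in Neil2-/-, 77.2 and 84.3 CPM in Neil1/2-/-, and 87.7, 102 and 88.2 CPM in WT libraries. The sums rest on the most abundant of the 6. Gene by gene, 5 were higher and 1 lower by sign in Neil1/2-/- mice, with a median log2 fold change of 0.35. In Neil2-/- mice 2 were higher and 4 lower, with a median of -0.40. In Neil1-/- mice 4 were higher and 2 lower, with a median of 0.67. The log2 fold change of Lrrtm4 in Neil1-/- mice was 0.00299 (SE 0.16). None of the 6 was called by edgeR or DESeq2, or reached an unadjusted p under 0.05, in any of these comparisons. C1ql2 and Dsp were at 0 in at least 1 library. The part of these cells in the level of Lrrtm4 was not tested.

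CaMKII is a holoenzyme of α, β, δ and γ subunits, and in forebrain neurons the α and β subunits dominate. Of the CPM per kb summed over the 4 genes, Camk2a made up 61.3% ± 7.12 in Neil1-/- (SD, n = 2), 57.3% ± 2.93 in Neil2-/- (n = 3), 61.8% ± 1.18 in Neil1/2-/- (n = 2) and 58.0% ± 1.30 in WT mice (n = 3). Camk2b made up 34.5% ± 6.41 in Neil1-/-, 38.6% ± 2.58 in Neil2-/-, 34.7% ± 1.51 in Neil1/2-/- and 38.2% ± 1.33 in WT mice. Camk2g and Camk2d accounted for 3.70% ± 0.165 and 0.0838% ± 0.00494 in WT mice. Lengths decided the balance of α and β, since with the longest transcripts the WT shares were 48.9% for Camk2a and 47.4% for Camk2b. The ratio of Camk2b to Camk2a CPM, which needs no length, ranged from 0.551 to 0.939 over the 10 libraries, with the lowest value in a Neil1-/- and the highest in a Neil2-/- mouse.

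Camk2a had 2027 and 2366 CPM in Neil1-/-, 2961, 2336 and 2189 CPM in Neil2-/-, 2526 and 2412 CPM in Neil1/2-/-, and 2115, 2348 and 2078 CPM in WT libraries. Both Neil1/2-/- values were above every WT value, and the Neil2-/- values overlapped WT. The log2 fold changes were 0.01 (95% interval -0.24 to 0.27, edgeR adjusted p = 0.985) in Neil1-/-, 0.19 (-0.03 to 0.42, adjusted p = 0.598) in Neil2-/- and 0.18 (-0.07 to 0.43, adjusted p = 0.607) in Neil1/2-/- mice. The Neil1-/- value, near 0, was -0.10 without library Neil1-/- 2.

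Camk2b had 1717 and 1305 CPM in Neil1-/-, 2221, 1851 and 2056 CPM in Neil2-/-, 1659 and 1731 CPM in Neil1/2-/-, and 1592, 1945 and 1734 CPM in WT libraries. Neil1-/- 2 was lowest and Neil2-/- 1 highest. Its log2 fold changes were -0.22 (95% interval -0.48 to 0.04, edgeR adjusted p = 0.615) in Neil1-/-, 0.22 (-0.01 to 0.45, adjusted p = 0.56) in Neil2-/- and -0.05 (-0.31 to 0.21, adjusted p = 0.908) in Neil1/2-/- mice. For loss of NEIL1 the log2 fold change was -0.24 (SE 0.08), with an unadjusted p of 0.0105 and an adjusted p of 0.238.

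Nrgn had 3254 and 3066 CPM in Neil1-/-, 3595, 3632 and 4002 CPM in Neil2-/-, 2948 and 3478 CPM in Neil1/2-/-, and 2680, 3096 and 3206 CPM in WT libraries. The 3 Neil2-/- values were above every WT value, as were those of 7.66% of all genes. The log2 fold change in Neil2-/- mice was 0.32 (SE 0.08, 95% interval 0.14 to 0.51), the smallest unadjusted p of any member in that comparison (0.00243), with an edgeR adjusted p of 0.201 and a DESeq2 adjusted p of 0.0297. In Neil1-/- and Neil1/2-/- mice it was 0.08 (-0.13 to 0.28, edgeR adjusted p = 0.839) and 0.10 (-0.10 to 0.31, adjusted p = 0.737). Nrgn lies on chromosome 9, between 37544493 and 37552745 of GRCm38, 19.6 Mb from Neil1.

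Camk2g, the γ subunit gene, had 141 and 108 CPM in Neil1-/-, 141, 148 and 146 CPM in Neil2-/-, 124 and 109 CPM in Neil1/2-/-, and 113, 135 and 109 CPM in WT libraries. Every Neil2-/- value was above WT. Its log2 fold change in Neil2-/- mice was 0.28 (SE 0.10), with an edgeR adjusted p of 0.397, and the interaction was -0.38 (SE 0.17), with an adjusted p of 0.874.

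Camk2d, the δ subunit gene, had 12.9 and 16.6 CPM in Neil1-/-, 7.18, 9.29 and 8.02 CPM in Neil2-/-, 22.4 and 7.68 CPM in Neil1/2-/-, and 8.58, 10.1 and 9.77 CPM in WT libraries. Both Neil1-/- values and 1 of the 2 Neil1/2-/- values were above WT, and the other Neil1/2-/- value was below it. The log2 fold change for loss of NEIL1 was 0.76 (SE 0.22, 95% interval 0.28 to 1.24), with an edgeR adjusted p of 0.19 and a DESeq2 adjusted p of 0.043. In Neil1-/- mice it was 0.64 (-0.05 to 1.33, edgeR adjusted p = 0.59). In Neil1/2-/- mice it was 0.67 (-0.02 to 1.36, adjusted p = 0.464), and it turned to -0.30 without library Neil1/2-/- 1. Without Neil1/2-/- 2 it was 1.24 with an edgeR adjusted p of 0.00575, a fit in which the spread of the 1 library left is taken from the other groups.

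Markers of other cells and regions moved with Camk2d in part. The 8 markers of striatum and thalamus summed to 52.3 and 14.96 CPM in Neil1-/-, 11.7 to 17.7 CPM in Neil2-/-, 88.1 and 49.5 CPM in Neil1/2-/-, and 14.3 to 18.1 CPM in WT libraries. For the 9 oligodendrocyte markers the sums were 703 and 519 CPM in Neil1-/-, 517 to 587 CPM in Neil2-/-, 1293 and 710 CPM in Neil1/2-/-, and 537 to 630 CPM in WT libraries. In Neil1/2-/- mice all 9 oligodendrocyte markers were higher at an unadjusted p under 0.05 (6.33% of all genes), from edgeR. Of the 8 markers of striatum and thalamus, 3 were higher at an edgeR adjusted p under 0.05 (0.322% of all genes were called). For loss of NEIL1 all 9 and all 8 of these markers were higher at an unadjusted p under 0.05 (7.03% of all genes), with 0 called by edgeR. Of the 8, DESeq2 called 2, where it called 116 of the 13982 genes higher. The 8 astrocyte markers summed to 721 and 877 CPM in Neil1-/-, 593 to 841 CPM in Neil2-/-, 1119 and 782 CPM in Neil1/2-/-, and 688 to 813 CPM in WT libraries. The 4 blood markers summed to 82.3 and 148 CPM in Neil1-/-, 63.1 to 112 CPM in Neil2-/-, 259 and 105 CPM in Neil1/2-/-, and 72.6 to 110 CPM in WT libraries, and in Neil1/2-/- mice 3 of the 4 were higher at an unadjusted p under 0.05 with none called by edgeR or DESeq2. For the 5 choroid plexus markers the sums were 78.6 and 42.7 CPM in Neil1-/-, 54.6 to 90.6 CPM in Neil2-/-, 302 and 131 CPM in Neil1/2-/-, and 57.4 to 174 CPM in WT libraries. Library Neil1/2-/- 1 was highest in all 5 sums and in Camk2d. It was also highest in the sums of interneuron, microglia and endothelial markers, with 548, 78.7 and 55.2 CPM. In the sums of CA1, of CA3 and CA2, and of dentate granule markers it was not. Library Neil1-/- 2, with 16.6 CPM of Camk2d, had oligodendrocyte and striatum sums within or below the WT range and astrocyte and blood sums above it. Their part in the level of Camk2d was not tested.

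**Figure D3:**
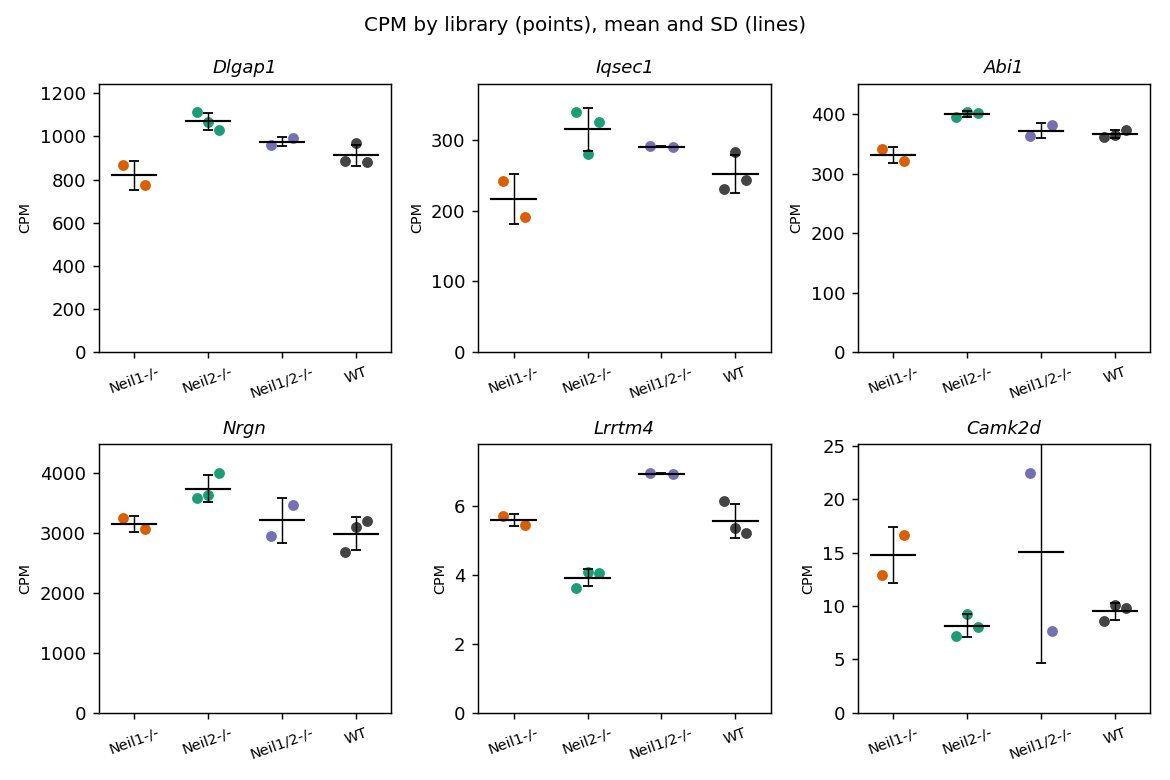
CPM of Dlgap1, Iqsec1, Abi1, Nrgn, Lrrtm4 and Camk2d in each library (points), with the mean and SD of each genotype (lines, n = 2, 3, 2 and 3). Neil2-/- mice are highest by mean for Dlgap1, Iqsec1, Abi1 and Nrgn and lowest for Lrrtm4, and Camk2d reaches 22.4 CPM in 1 Neil1/2-/- library and 7.68 CPM in the other.

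The 11 regulators shape spine actin or turn small GTPases on and off. Of these 1 was called, for loss of NEIL2. Iqsec1, on chromosome 6 between 90659596 and 90988480, encodes an Arf exchange factor that takes part in the removal of AMPA receptors. It had 242 and 191 CPM in Neil1-/-, 339, 280 and 325 CPM in Neil2-/-, 291 and 290 CPM in Neil1/2-/-, and 231, 283 and 242 CPM in WT libraries. The 5 libraries lacking NEIL2 were above 4 of the 5 others, and only 280 CPM in a Neil2-/- library fell under the highest WT value.

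For loss of NEIL2 the log2 fold change of Iqsec1 was 0.36 (SE 0.08, 95% interval 0.19 to 0.53), with an edgeR adjusted p of 0.0396. It was 0.32 (SE 0.10, adjusted p = 0.321) in Neil2-/- and 0.21 (SE 0.11, adjusted p = 0.538) in Neil1/2-/- mice against WT, and -0.22 (SE 0.12, adjusted p = 0.607) in Neil1-/- mice. The call was lost when library Neil1-/- 2, Neil1/2-/- 1, Neil1/2-/- 2, Neil2-/- 1, Neil2-/- 3, WT 1 or WT 3 was left out, with log2 fold changes of 0.29 to 0.42 over all the libraries left out in turn and a highest adjusted p of 0.127.

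The 10 markers of CA1 pyramidal neurons, given above for each genotype, summed to 4088 to 4591 CPM in the 5 libraries lacking NEIL2 and 4017 to 4541 CPM in the other 5. Of these 10 genes 5 were higher and 5 lower by sign for loss of NEIL2, with a median log2 fold change of 0.0027. At an unadjusted p under 0.05 in edgeR, 2 were higher and 0 lower, where 8.52% of all genes were higher. Of the 10, edgeR called 0 and DESeq2 called 1, where DESeq2 called 355 of the 13982 genes higher. The part of the CA1 markers in the calls of Dlgap1 and Iqsec1 was not tested.

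The promoters of both called genes are shown because these members rose together for loss of NEIL2. The windows hold 250 bases before and 50 after a transcription start in RefSeq (GRCm38.p6), and of the 2 starts listed for each gene the one nearest its annotated 5′ end is given, 5′ to 3′ along the gene. That of Dlgap1 is the annotated start itself, and that of Iqsec1 lies inside the annotated span of the gene. Capitals mark matches, on either strand, to 5 motifs: the GC box GGGCGG, the CCAAT box CCAAT, the nuclear receptor site AGGTCA, the E-box CACGTG and the cyclic AMP response element TGACGTCA.
Dlgap1, chr17:69968823-69969122, plus strand: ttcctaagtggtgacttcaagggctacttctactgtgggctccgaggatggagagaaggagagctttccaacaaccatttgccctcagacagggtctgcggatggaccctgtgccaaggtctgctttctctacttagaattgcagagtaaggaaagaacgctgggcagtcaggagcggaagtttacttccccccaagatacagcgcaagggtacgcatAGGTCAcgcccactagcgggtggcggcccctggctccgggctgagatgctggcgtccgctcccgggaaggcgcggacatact
Iqsec1, chr6:90810074-90810373, minus strand: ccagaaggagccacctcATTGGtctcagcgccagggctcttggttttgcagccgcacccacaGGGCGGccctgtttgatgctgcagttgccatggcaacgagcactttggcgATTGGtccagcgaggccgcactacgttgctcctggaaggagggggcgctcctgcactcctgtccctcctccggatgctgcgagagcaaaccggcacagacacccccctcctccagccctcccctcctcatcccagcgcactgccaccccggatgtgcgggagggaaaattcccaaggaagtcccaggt

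The Dlgap1 window held 1 nuclear receptor site, and the Iqsec1 window held 1 GC box and 2 CCAAT boxes, so that the windows had no motif in common, and no match overlapped another. Over the 42 promoters listed for 26 of the 34 members, 47.6% held a GC box, 38.1% a CCAAT box, 16.7% a nuclear receptor site, 7.14% an E-box and 0 the cyclic AMP response element. Over all 32851 promoters of the same length the shares were 35.7%, 37.4%, 16.3%, 7.15% and 1.79%. A match to these letters is a description of the window only.

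Abi1, a subunit of the WAVE complex, had 341 and 321 CPM in Neil1-/-, 395, 403 and 403 CPM in Neil2-/-, 364 and 381 CPM in Neil1/2-/-, and 361, 365 and 374 CPM in WT libraries. The Neil2-/- values were above and the Neil1-/- values below every WT value. The log2 fold change for loss of NEIL2 was 0.14 (SE 0.04, 95% interval 0.06 to 0.23), with an edgeR adjusted p of 0.0953 and a DESeq2 adjusted p of 0.00593. For loss of NEIL1 it was -0.13 (SE 0.04), with an edgeR adjusted p of 0.23. In Neil1-/- mice it was -0.15 (SE 0.06, adjusted p = 0.54). The counts of Abi1 were whole in none of the libraries, so that some of its reads may be shared.

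Its relative Abi2 had 348 and 358 CPM in Neil1-/- and 355 and 351 CPM in Neil1/2-/- libraries, against 382, 415 and 375 CPM in Neil2-/- and 408, 367 and 382 CPM in WT libraries. The 4 libraries lacking NEIL1 lay below all 6 others. Abi2 was the 1 member for which they did, with none above, where 1.29% of all genes were below and 1.05% above. The log2 fold change for loss of NEIL1 was -0.14 (SE 0.05, 95% interval -0.24 to -0.03), with an edgeR adjusted p of 0.254. Counts of Abi2 were whole in 6 of the 12 libraries, so that its reads, too, may be shared in part.

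Baiap2 (IRSp53), which bends membranes and binds WAVE, had 564 and 524 CPM in Neil1-/-, 561, 572 and 612 CPM in Neil2-/-, 455 and 539 CPM in Neil1/2-/-, and 573, 614 and 537 CPM in WT libraries. The value of 455 CPM was in library Neil1/2-/- 1, and the other Neil1/2-/- library was within the WT range. In Neil1/2-/- mice its log2 fold change was -0.21 (SE 0.09, 95% interval -0.40 to -0.02), with the smallest unadjusted p of any member there, 0.0327, an edgeR adjusted p of 0.401, and -0.09 without library Neil1/2-/- 1.

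Kalrn, which encodes the Rac exchange factor kalirin, ranged from 696 CPM in a Neil1-/- to 1043 CPM in a Neil2-/- library, and its log2 fold change in Neil1-/- mice was -0.23 (SE 0.10, edgeR adjusted p = 0.543). Lrrc7 (densin), a scaffold that binds CaMKII, had 126 and 136 CPM in Neil1-/- mice, against 152, 153 and 145 CPM in WT mice, with a log2 fold change of -0.20 (SE 0.08, adjusted p = 0.542). Counts were whole in 2 of the 12 libraries for Kalrn and in 0 for Lrrc7, which may likewise hold shared reads. Sipa1l1, a Rap GTPase-activating scaffold, had a log2 fold change of 0.18 (SE 0.07, adjusted p = 0.223) for loss of NEIL2. Cyfip2 ranged from 1026 to 1363 CPM, Ppp1r9b from 599 to 807 CPM, Iqsec2, another Arf exchange factor, from 248 to 330 CPM and Agap2 from 722 to 1010 CPM.

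With so few libraries a group, groups that do not overlap were common among all genes. In Neil1-/- mice 2 members were above and 7 below every WT library, where 12.7% of all genes were above and 13.8% below. In Neil2-/- mice the counts were 4 above and 2 below (7.66% and 7.6% of all genes), and in Neil1/2-/- mice 3 above and 4 below (14.1% and 14.6% of all genes). For loss of NEIL2, over 5 and 5 libraries, the groups of every member overlapped, whereas 3.68% of all genes did not.

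Of 51 other postsynaptic genes, edgeR called 1 in any of the 6 comparisons, for loss of NEIL2, where 1.49% of all genes were called. DESeq2 called 3 there, and 2 in Neil1-/- mice, 2 in Neil2-/- mice and 1 in the interaction. Of the 13982 genes DESeq2 called 355 higher and 273 lower for loss of NEIL2, 29 and 55 in Neil1-/- mice, 87 and 63 in Neil2-/- mice, and 16 and 14 in the interaction. Slitrk3, which encodes an adhesion protein best known from inhibitory synapses, had 158, 139 and 145 CPM in Neil2-/- and 129 and 145 CPM in Neil1/2-/- libraries, against 108 and 96.2 CPM in Neil1-/- and 120, 130 and 125 CPM in WT libraries. The groups overlapped only at 129 and 130 CPM. Its log2 fold change was 0.31 (SE 0.06), with an edgeR adjusted p of 0.0262. The median of the 51 genes for loss of NEIL2 was 0.06, with 10 higher and 3 lower at an unadjusted p under 0.05, where 8.52% of all genes were higher and 7.61% lower.

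Among 22 regulators, partners and relatives of CaMKII, Camk1d was the 1 gene called by edgeR, again for loss of NEIL2 (1.49% of all genes). DESeq2 called 4 there and 1 for loss of NEIL1, where it called 355 of the 13982 genes higher and 273 lower, and 116 and 116. Camk1d encodes another calmodulin-dependent kinase, and had 301, 273 and 271 CPM in Neil2-/- and 254 and 261 CPM in Neil1/2-/- libraries, against 229 and 187 CPM in Neil1-/- and 236, 245 and 217 CPM in WT libraries. The groups did not overlap. Its log2 fold change was 0.29 (SE 0.06), with an edgeR adjusted p of 0.0341, and 7 of the 22 genes were higher and none lower at an unadjusted p under 0.05 (8.52% and 7.61% of all genes). Of 26 further genes of the WAVE complex and spine actin, none was called by edgeR or DESeq2 in any comparison, with 5 higher and none lower at an unadjusted p under 0.05 for loss of NEIL2 (8.52% and 7.61% of all genes) and none higher and 4 lower for loss of NEIL1 (7.03% and 6.77% of all genes).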

How the data were processed

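The authors' deposited table holds RSEM expected counts per gene for 12 libraries. Per the study's methods and processing notes, the authors filtered reads with SOAPnuke, mapped them to the genome with HISAT (GRCm38) and to a reference with Bowtie2, and estimated expression with RSEM, versions not given in the sources used here. RSEM divides reads that match several genes. Of the deposited values 87.8% were whole numbers, and a gene with fractions may hold shared reads. Poly-A selection favours intact, polyadenylated RNA.

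Expected counts were rounded, genes were filtered with filterByExpr (minimum count 10, leaving 13982 genes), scaled with TMM and tested with edgeR 4.0.16 (R 4.3.3, glmQLFit and glmQLFTest, 2-sided) in 1 fit with a mean per genotype, and in an additive fit with NEIL1 and NEIL2 loss as factors. P-values were Benjamini-Hochberg adjusted over all genes tested, with a threshold of 0.05. DESeq2 1.42.0 served as a second tool. The 10 libraries, each from 1 mouse, held 19618921 to 21970173 counts, and with 2 or 3 mice a group the median 95% interval of a member's log2 fold change against WT reached 0.20 to 0.22 either way. CPM per kb used exon lengths of GENCODE M21 on GRCm38, and promoters were those of RefSeq. The scripts were tested on simulated data.

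The members, marker lists and other gene lists were chosen with earlier results of these data known. Full statistics are given for members past the threshold, the 3 of smallest p in each of the 6 comparisons, and Dlg4, Camk2a, Camk2b and Nrgn. Those of Shank1, Abi2, Kalrn, Lrrc7 and Sipa1l1, and the values of Dlgap3, were added after they were seen. In the other lists the genes called by edgeR are named. Ddn and Lrrtm3, which edgeR did not call, are given besides, Lrrtm3 after its values were seen. The 2 libraries with conflicting labels entered no fit. Besides DESeq2, the fits were repeated without the filter, with median-ratio scaling, with a replicate block, with only the groups compared, with each library left out in turn, and without both Neil1-/- 2 and Neil1/2-/- 1, which earlier results of these data showed to stand apart.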

Additional observations from a re-analysis of the deposited data

How the results depend on the processing

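The 2 calls for loss of NEIL2 were the only ones among the members, and they did not hold in most alternatives: 0 members were called with a replicate block, 0 without both Neil1-/- 2 and Neil1/2-/- 1, 3 with DESeq2, and 0 to 2 when 1 library was left out. The adjusted p of Dlgap1 ranged from 0.000218 to 0.104 and that of Iqsec1 from 0.000898 to 0.127 over the alternatives, and each was called in 6 of 15. For loss of NEIL1, DESeq2 called 1 member and leaving out 1 library gave 0 to 1. In Neil1/2-/- mice leaving out 1 library gave 0 to 1, the 1 being Camk2d without Neil1/2-/- 2. In Neil2-/- mice DESeq2 called 1 member. Over all genes, the 28, 42 and 45 calls in Neil1-/-, Neil2-/- and Neil1/2-/- mice became 44, 64 and 135 with no filter on low counts, 85, 152 and 179 with DESeq2, and 17 to 26, 15 to 48 and 17 to 247 with 1 library left out. With the replicate block there were 18 in Neil2-/- mice, and without both Neil1-/- 2 and Neil1/2-/- 1 there were 25 in Neil1/2-/- mice. The 47 calls for loss of NEIL1 became 106 with no filter, 235 with DESeq2, 28 to 79 with 1 library left out and 25 without both. The 209 for loss of NEIL2 became 628 with DESeq2, 69 to 215 with 1 library left out and 87 without both. The 13 in the interaction became 22 with no filter, 30 with DESeq2 and 10 to 41 with 1 library left out. Log2 fold changes near 0 changed sign: in Neil1-/- mice Camk2a was -0.051 with the replicate block, -0.10 without both libraries and -0.10 to 0.12 with 1 left out, and Dlg4 was -0.020 to 0.11. In Neil2-/- mice Dlg4 was -0.076 to 0.059. In Neil1/2-/- mice Dlg4 was -0.016 to 0.12, Camk2b -0.12 to 0.028, Nrgn -0.026 to 0.22 and Camk2d -0.30 to 1.24, with -0.30 without both libraries. The cause of these changes was not tested. Same-numbered libraries of different genotypes had deviations that correlated between -0.26 and 0.28, with 3 of 13 pairs above 0.1. In groups of 2 the deviations mirror each other, so that these values cannot decide whether the numbers pair libraries. Of the 3 Neil2-/- libraries, 1 correlated best with the WT library of its number. The numbers were taken as names and not as pairs. Where 1 library of a group remained, it was assumed to vary like the others. With 2 or 3 mice a group, the median 95% interval of a member against WT reached 0.20 to 0.22 (log2) either way, not adjusted for the number of genes. Smaller differences were mostly not detectable, and larger ones also went uncalled. In Neil2-/- mice edgeR called neither Lrrtm4 at -0.51 nor Nrgn at 0.32.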

Other observations

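The 2 libraries whose title and label name different genotypes were at 7.13 and 6.72 CPM of Neil1 and at 3 and 0 counts of Neil2. Relative to the WT means, the median member was at 0.02 and 0.09 on the log2 scale, with 21 and 24 of the 34 members above the WT mean. Dlgap1 was at 948 and 1018 CPM, Iqsec1 at 231 and 302 CPM, Nrgn at 2926 and 3104 CPM, Lrrtm4 at 3.54 and 5.34 CPM and Camk2d at 8.996 and 7.56 CPM.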
